A study of Mus musculus with 24 samples.

Results

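CD8+ T cells whose labels give a Tcf7 conditional knockout (cKO) were compared with cells labelled wild type (WT) 4 h after they were plated on antibodies against CD3 and CD28. The comparison holds the 3 cKO libraries (mice 1 to 3) and the 3 WT libraries (mice 4 to 6) labelled 4 h, 6 of the 24 libraries of the series, chosen by genotype and time alone. The other 18 libraries come from the same 6 mice at 0, 8 and 24 h. The cKO mice carried the E8i-cre transgene and floxed Tcf7 alleles on the OT-I background, a transgenic T cell receptor. The WT mice carried the same floxed alleles and receptor without cre. An effect of the deletion and one of the cre transgene cannot be told apart. E8i is an enhancer of the Cd8a locus that drives cre in mature CD8 T cells. Cells of spleen and lymph nodes were enriched with CD8 microbeads and cultured with mouse IL2 at 6 ng/mL on plates coated with the antibodies at 1 ug/mL. Each library came from 1000 sorted cells, and Smart-seq2, which covers whole transcripts and uses no molecular identifiers, was run on them. The sort gate and the ages of the mice are not stated in the sources used.

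Tcf7 encodes TCF1, a DNA-binding protein of the TCF/LEF family that is abundant in naive and stem-like CD8 T cells and declines as they become effector cells. Activation through the T cell receptor and CD28 induces, within hours, a wave of signalling feedback genes, cytokines and chemokines, and later the granule proteins with which effector cells kill. The title of the series links TCF1 and CXCR6, a chemokine receptor of effector and tissue-resident T cells, to co-stimulation through CD28.

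The 4 h libraries held between 6468505 and 7699282 expected counts each, and a ribosomal RNA gene, Rn45s, took 18.4 to 20.6% of them. The libraries' own T cell markers were abundant. The 6 CD8 T cell markers found in the files summed to between 2282 and 2378 TPM, a level corrected for gene length and depth, in cKO libraries and to between 1955 and 2146 TPM in WT libraries. In an ordination of all 24 libraries, cKO mouse 3 stood apart from the other 4 h libraries, at -35.7 on the first component against -24.5 to -21.4 for the others. Results that change when a library is left out are given with their values.

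Messenger RNA of Tcf7 itself was not lower in the cKO libraries at 4 h. It measured 263, 251 and 271 TPM in cKO mice 1 to 3, against 180, 205 and 190 TPM in WT mice 4 to 6. All 3 cKO values lay above all 3 WT values, and the fitted log2 fold change was 0.40 ± 0.12 (SE), with adjusted p 0.113 by edgeR's quasi-likelihood test. It passed in 3 of 16 alternative fits, those without the filter on low counts, with the 4 h libraries alone and with DESeq2. The deposited values sum reads over the whole gene, here 1 transcript, so RNA that carries the deletion can still be counted. They do not check the genotype labels. Lef1, the related TCF/LEF factor, had 201, 180 and 210 TPM in cKO, against 162, 158 and 162 TPM in WT, at a log2 fold change of 0.28 (adjusted p 0.23). Cd28 had 24.1, 25.2 and 28.2 TPM in cKO, against 24.6, 19.4 and 24.0 TPM in WT, levels that overlapped (log2 fold change 0.14, adjusted p 0.815).

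Cytotoxic and homing genes were among those that were higher in cKO at 4 h, and signalling feedback genes and the cytokine RANKL among those that were lower. Of 11470 genes tested, 94 (0.820%) had a Benjamini-Hochberg adjusted p under 0.05, which is the rule for a call throughout. Of these, 50 (0.436%) were higher and 44 (0.384%) were lower in cKO than in WT. At least 2-fold differences were found for 22 of the higher and 15 of the lower genes, and the median sizes of the log2 differences were 0.87 and 0.78. The cKO and WT mice did not overlap in TPM for any of the 50 higher genes and for 43 of the 44 lower genes. For reference, 10.5% of all tested genes were higher and 5.82% were lower in cKO without overlap. The 12 increases and 12 decreases described one at a time below were chosen among genes without overlap. Their separation was therefore set by that choice. Over all tested genes the median log2 fold change was near 0, at -0.0022. A difference in bulk RNA can come from more cells of a kind or more RNA per cell, and these cannot be told apart here.

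**Figure D1:**
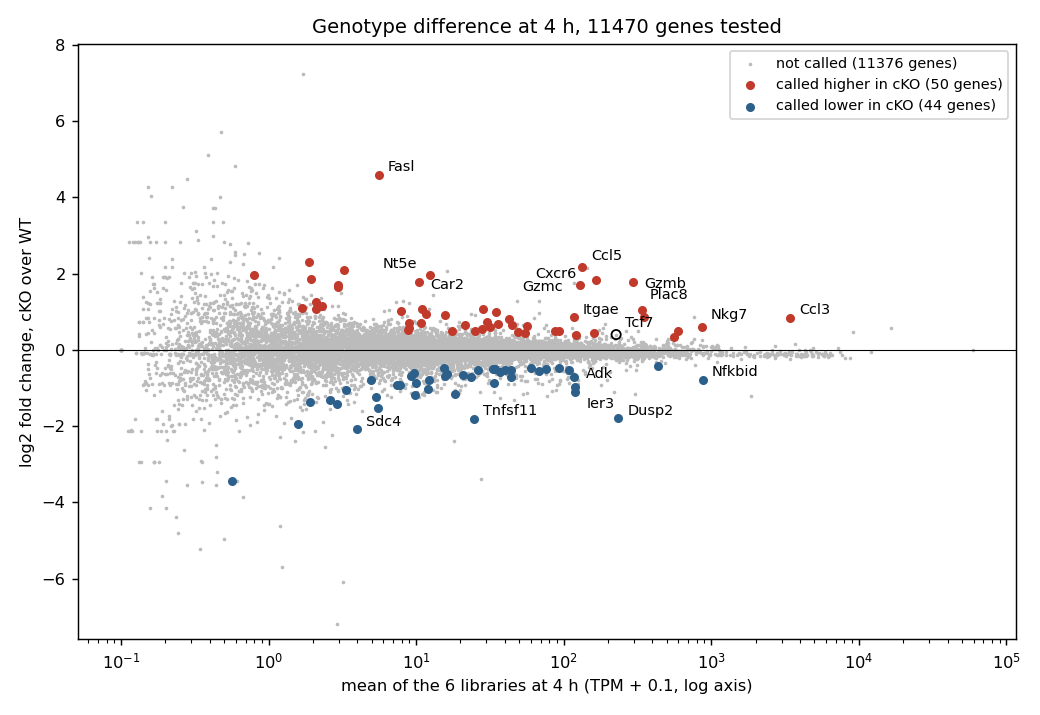
Fitted log2 fold change of cKO over WT at 4 h (vertical axis) against the mean level of the 6 libraries in TPM + 0.1 (horizontal log axis), with 1 point per tested gene. The 50 genes called higher in cKO are red, the 44 called lower are blue, the rest are grey, and the open circle is Tcf7. Fasl has the largest called increase, 4.60, and most called genes lie within 2 log2 units of 0.

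A death ligand, granule proteases and the pore-forming protein of killing were among the genes called higher in cKO. Fasl, whose protein triggers death through the receptor Fas (chromosome 1, 161780689 to 161788495, minus strand, GRCm38), had 9.34, 9.88 and 12.4 TPM in cKO, against 0.62, 0.29 and 0.29 TPM in WT. The gene was close to undetected in each WT mouse and above 9 TPM in each cKO mouse, a fitted 24.2-fold difference (log2 4.60 ± 0.38 SE, adjusted p 1.89e-10). The fold rests on 242 expected counts in all in cKO, against 9 in WT. Gzmb, a granule serine protease (chromosome 14, 56258838 to 56262260, minus strand), had 453, 436 and 497 TPM in cKO, against 141, 145 and 107 TPM in WT. Gzmc, a related granzyme of the same gene cluster (chromosome 14, 56231441 to 56234656, minus strand), had 197, 214 and 185 TPM in cKO, against 65.7, 60.8 and 51.9 TPM in WT. The lowest cKO value was about 3 times the highest WT value for both granzymes, with log2 fold changes of 1.77 (adjusted p 8.45e-06) and 1.70 (adjusted p 1.01e-05). RSEM divides reads that match more than 1 gene, and reads shared by these neighbouring granzymes could be moved between them. Prf1, which encodes perforin, the pore-forming protein of the granules (chromosome 10, 61297833 to 61304680, plus strand), had 40.4, 38.2 and 36.3 TPM in cKO, against 12.5, 23.9 and 17.5 TPM in WT. Its values did not overlap, with WT mouse 5 nearest to cKO, and the log2 fold change was 1.06 (adjusted p 0.0227). The Prf1 call was lost without cKO mouse 1, cKO mouse 2, WT mouse 4 or WT mouse 6 (adjusted p up to 0.114).

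Of the 22 genes in a list of cytotoxic granule and death-ligand genes, 16 were tested, and edgeR called 6 higher and 0 lower. DESeq2 called the same 6 higher and Lamp1, a membrane protein of granules and lysosomes, lower (log2 fold change -1.09, adjusted p 0.014), and edgeR gave Lamp1 -1.10 (adjusted p 0.103). The other called members were Nkg7, a granule membrane protein, with a log2 fold change of 0.61 (adjusted p 0.0126), and Ctsw, a cathepsin of cytotoxic cells, with 0.50 (adjusted p 0.00366). The Nkg7 call was lost without cKO mouse 2, WT mouse 5 or WT mouse 6 (adjusted p up to 0.101). The list median was 0.44. Uncalled members included Srgn, the granule proteoglycan, with 1838, 2224 and 2098 TPM in cKO, against 2387, 2264 and 2043 TPM in WT, values that overlapped. Stx1a, a syntaxin of membrane fusion (chromosome 5, 135023482 to 135051100, plus strand), had 16.6, 14.2 and 13.7 TPM in cKO, against 5.41, 6.95 and 8.13 TPM in WT. It did not overlap (log2 fold change 1.08, adjusted p 0.00177) and was the only called gene among 20 tested genes of granule exocytosis and SNARE proteins, whose median was 0.06. Markers of NK cells, which also carry granzymes, were at trace levels. The 7 NK markers summed to 2.81, 2.54 and 2.17 TPM in cKO, against 1.00, 1.49 and 0.68 TPM in WT, higher in each cKO library. Klra8 and Klra4 were listed at 0 in all 6 libraries. The 1 NK marker that could be tested was higher in cKO without overlap and was not called (log2 fold change 1.80). Its log2 fold change was 0.27, -0.24 and -2.40 at 0, 8 and 24 h. The part of NK cells in the result was not tested.

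Among surface molecules of migration and adhesion, a few were called higher. Cxcr6, the receptor of CXCL16 (chromosome 9, 123806475 to 123811760, plus strand), had 268, 255 and 261 TPM in cKO, against 72.4, 73.2 and 66.8 TPM in WT. The mice of each genotype lay close together, and the 3.58-fold difference (log2 1.84 ± 0.13 SE, adjusted p 1.89e-10) was far larger than that spread. Amica1, an adhesion molecule of the junctional adhesion family (chromosome 9, 45079153 to 45108531), had 50.5, 49.2 and 41.2 TPM in cKO, against 25.9, 20.5 and 21.6 TPM in WT. It did not overlap (log2 fold change 1.01, adjusted p 1.71e-05). Itgae, the alpha chain of the integrin that binds E-cadherin, averaged 153 ± 16.5 TPM in cKO, against 81.6 ± 0.711 TPM in WT (SD, n = 3 each), and edgeR gave a log2 fold change of 0.86 (adjusted p 4.85e-05). Itgb2, the beta chain of LFA-1, rose by less (log2 fold change 0.40, adjusted p 0.0117), and was not called without cKO mouse 2, WT mouse 5 or WT mouse 6 (adjusted p up to 0.112). Of 21 tested genes for chemokine receptors, homing and adhesion, these 3 (Cxcr6, Itgae and Itgb2) were called higher and 0 lower by edgeR, and the list median was 0.14. DESeq2 called 4 higher and 1 lower, Itgb7, an integrin beta chain (log2 fold change -1.25, adjusted p 0.0147, against 0.105 by edgeR). Ccr7, a chemokine receptor of lymph node homing, was not called (log2 fold change -0.06, adjusted p 0.842).

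The promoter sequences of 4 genes called higher, Plac8 of the memory-phenotype list among them, are shown as examples because TCF1 binds DNA. The genes are 4 of the 17 higher genes whose calls held without any 1 library. The sequences are RefSeq windows of GRCm38.p6 from 250 bases before to 50 after a transcription start, 5′ to 3′ on the gene's strand. Capitals mark matches on either strand to 4 TCF/LEF words, which are AACAAAG, its variant ATCAAAG, a further variant TACAAAG and the last variant TTCAAAG, and to the RUNX word TGTGGT. The TCF/LEF and RUNX words do not overlap each other in these windows.
Cxcr6, chr9:123806227-123806526, plus strand: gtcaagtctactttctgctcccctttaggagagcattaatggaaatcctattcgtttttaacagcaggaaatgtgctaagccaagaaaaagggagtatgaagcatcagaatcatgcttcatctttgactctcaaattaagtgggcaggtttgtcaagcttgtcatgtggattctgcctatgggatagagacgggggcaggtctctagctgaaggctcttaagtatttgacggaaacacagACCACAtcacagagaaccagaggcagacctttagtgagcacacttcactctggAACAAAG
Plac8, chr5:100572156-100572455, minus strand: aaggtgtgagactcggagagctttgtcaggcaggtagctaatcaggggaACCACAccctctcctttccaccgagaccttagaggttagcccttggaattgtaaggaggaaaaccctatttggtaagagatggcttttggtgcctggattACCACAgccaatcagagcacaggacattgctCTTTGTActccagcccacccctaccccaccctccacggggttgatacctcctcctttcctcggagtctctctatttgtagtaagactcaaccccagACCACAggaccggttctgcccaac
Gzmb, chr14:56262285-56262584, minus strand: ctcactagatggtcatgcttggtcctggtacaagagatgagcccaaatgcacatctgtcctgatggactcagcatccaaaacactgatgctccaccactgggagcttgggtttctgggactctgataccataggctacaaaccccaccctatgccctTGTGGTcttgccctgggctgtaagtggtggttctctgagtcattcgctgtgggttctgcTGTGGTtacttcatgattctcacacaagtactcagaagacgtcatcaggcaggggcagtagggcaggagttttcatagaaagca
Fasl, chr1:161788446-161788745, minus strand: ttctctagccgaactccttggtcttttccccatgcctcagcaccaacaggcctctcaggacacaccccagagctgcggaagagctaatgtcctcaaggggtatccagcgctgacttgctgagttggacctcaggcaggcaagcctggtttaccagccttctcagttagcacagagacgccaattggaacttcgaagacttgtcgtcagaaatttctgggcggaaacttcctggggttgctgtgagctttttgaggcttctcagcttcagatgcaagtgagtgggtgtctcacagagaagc
The Cxcr6 window held 1 TCF/LEF match, AACAAAG from 43 bases after the start, and 1 RUNX match from 10 bases before it. The Plac8 window shown held 1 TCF/LEF match and 3 RUNX matches, and a second Plac8 window at another start, chr5:100563047-100563346, held 0 of either. Gzmb had 2 RUNX matches and no TCF/LEF match, and Fasl had neither. No TCF/LEF match was in the windows of Gzmc, Nt5e, Amica1, Stx1a, Dennd5a, Cd55, Furin, Coro2a, Nrp1 and 5430427O19Rik, others of the 17. Across all 32851 promoter windows of the table, 16.9% held a TCF/LEF match and 16.8% a RUNX match. A window was found for 39 of the 50 genes called higher (78%) and for 37 of the 44 called lower (84.1%), and shares over a set are given only where at least 80% of its genes had one. The 37 lower genes had 50 windows, because some genes have several starts. A TCF/LEF match was in 12% of these and a RUNX match in 14%, against 11.8% and 12.8% of the windows of all tested genes. A match describes these letters alone.

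Among secreted factors, edgeR called 3 inflammatory mediators higher in cKO and the cytokine RANKL lower. Ccl5, a chemokine of memory and effector CD8 T cells (chromosome 11, 83525778 to 83530518, minus strand), had 329, 199 and 134 TPM in cKO, against 40.8, 71.3 and 30.9 TPM in WT. It did not overlap but varied widely within each genotype (log2 fold change 2.18 ± 0.46 SE, adjusted p 0.033). The Ccl5 call held without cKO mouse 3 and was lost without any other 4 h library (adjusted p up to 0.187). Ccl3, an inflammatory chemokine, averaged 4451 ± 157 TPM in cKO, against 2421 ± 388 TPM in WT (SD, n = 3 each), with a log2 fold change of 0.84 (adjusted p 0.0113 by edgeR). Ifng, which encodes interferon gamma, had 521, 448 and 414 TPM in cKO, against 283, 234 and 212 TPM in WT, without overlap, and a log2 fold change of 0.88 (adjusted p 0.0335). Ifng was not called without cKO mouse 1, cKO mouse 2, WT mouse 5 or WT mouse 6 (adjusted p up to 0.187), and Ccl3 not without cKO mouse 2 or WT mouse 6 (adjusted p up to 0.0772). Tnfsf11, which encodes RANKL, a member of the TNF family (chromosome 14, 78277445 to 78308043, minus strand), had 10.1, 10.7 and 12.5 TPM in cKO, against 27.6, 30.2 and 55.6 TPM in WT. All WT values were higher, with WT mouse 6 well above the others (log2 fold change -1.81 ± 0.34 SE, adjusted p 0.0178). The Tnfsf11 call was lost without any 1 of the cKO mice or WT mouse 6 (adjusted p up to 0.0909). Of 23 tested cytokine and chemokine genes edgeR called these 3 higher and 1 lower, and the median was 0.05. DESeq2 called 7 higher, adding Ccl1, Ccl4, Ccl9 and Xcl1, and 1 lower. On log2(TPM + 1) limma called 6 higher and 1 lower. A limma voom fit with the mouse as a random block called 3 higher, Ccl3, Ccl4 and Ifng, and 0 lower. Il2, whose protein drives T cell growth, was not called (log2 fold change -0.32, adjusted p 0.577).

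Enzymes of adenosine handling differed in opposite directions. Nt5e encodes CD73, the surface enzyme that makes adenosine from AMP (chromosome 9, 88327197 to 88372092, plus strand), and had 17.8, 22.2 and 18.8 TPM in cKO, against 4.74, 4.15 and 5.8 TPM in WT. Adk encodes adenosine kinase, which makes AMP from adenosine inside the cell (chromosome 14, 21052574 to 21448569, plus strand), and had 68.1, 83.3 and 94.1 TPM in cKO, against 162, 157 and 147 TPM in WT. Neither gene overlapped between genotypes, and the log2 fold changes were 1.96 (adjusted p 0.000466) for Nt5e and -0.98 (adjusted p 7.87e-06) for Adk. They were the only called genes among 16 tested genes of adenosine and AMP handling, whose median was near 0. Car2, a carbonic anhydrase (chromosome 3, 14886273 to 14900770, plus strand), had 18.3, 17.0 and 13.4 TPM in cKO, against 4.70, 4.06 and 4.99 TPM in WT, well separated (log2 fold change 1.78, adjusted p 0.000972).

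Plac8, a cysteine-rich protein of leukocytes (chromosome 5, 100553725 to 100572245, minus strand), had 500, 491 and 399 TPM in cKO, against 221, 189 and 236 TPM in WT. The lowest cKO mouse was well above the highest WT mouse (log2 fold change 1.06, adjusted p 0.0027). Kit, the receptor of stem cell factor (chromosome 5, 75574916 to 75656722, plus strand), had 11.6, 9.19 and 10.8 TPM in cKO, against 5.96, 4.69 and 4.40 TPM in WT, again without overlap (log2 fold change 1.01, adjusted p 0.0313). The Kit call held without WT mouse 4 and was lost without any other 4 h library (adjusted p up to 0.187). Of 16 tested memory-phenotype genes, 4 were called higher, Ccl5, Nkg7, Plac8 and Fasl, and 0 lower, and the median was 0.39. Of all tested genes 0.436% were called higher. Fasl and Nkg7 were also counted in the cytotoxic list and Ccl5 in the cytokine list, so these counts are not separate. Ly6a, the surface marker Sca-1, had 1117, 1094 and 803 TPM in cKO, against 544, 540 and 514 TPM in WT, without overlap, yet was not called (log2 fold change 0.88, adjusted p 0.36). Among co-stimulatory and inhibitory molecules Cd86, a ligand of CD28 and CTLA4, and Pdcd1lg2, which encodes the PD-1 ligand PD-L2, were called higher, with log2 fold changes of 1.65 (adjusted p 0.0234) and 0.72 (adjusted p 0.0313). Both were modest in level, averaging 4.36 and 11.1 TPM in cKO, against 1.34 and 6.54 TPM in WT, and the 24 tested members of the list had a median of 0.16. Markers of dendritic cells, which carry both ligands, summed to 9.96, 8.63 and 8.86 TPM in cKO, against 4.5, 7.29 and 6.99 TPM in WT, and their part in the result was not tested.

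**Figure D2:**
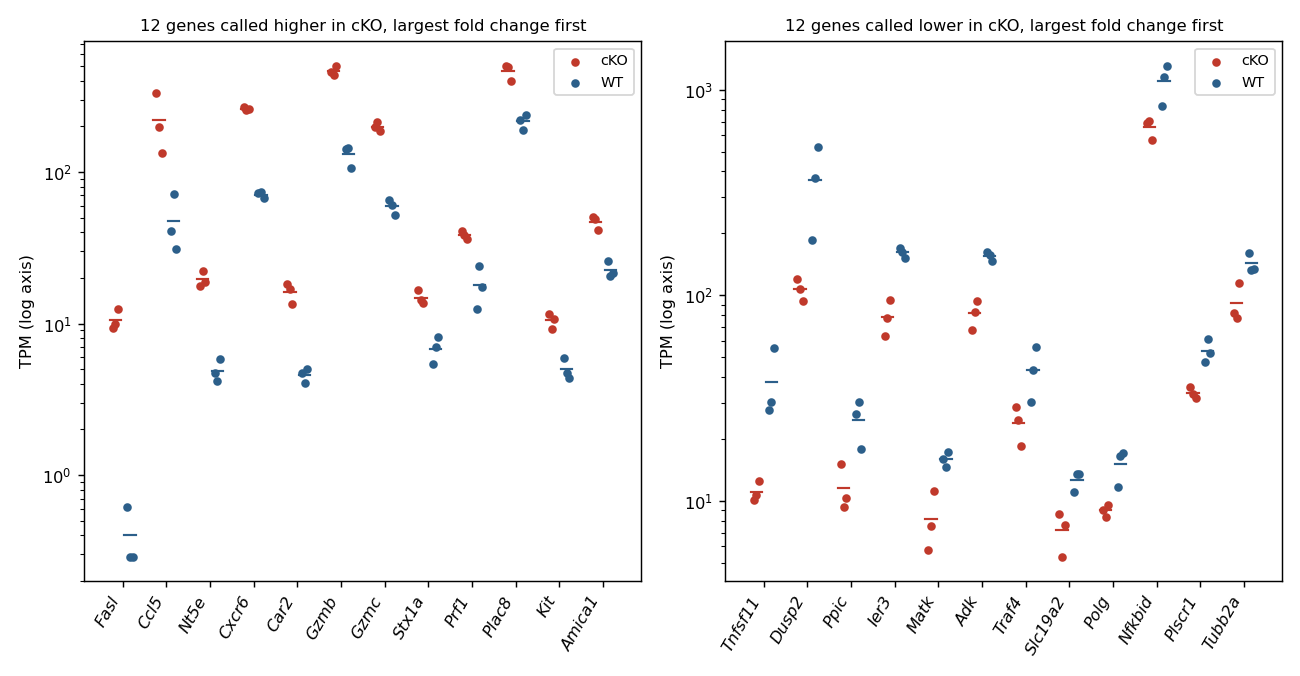
TPM of each mouse at 4 h for the genes described one at a time, 12 higher and 12 lower in cKO, on a log axis, with cKO mice in red to the left of WT mice in blue. Each point is 1 mouse and each bar a group mean. Only genes without overlap were eligible, so the separation of the genotypes was set by the choice of genes. The width of the gap was not, for example for Cxcr6, with 255 to 268 TPM in cKO, against 66.8 to 73.2 TPM in WT.

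The genes that were lower in cKO included feedback regulators of activation signals. Dusp2, a nuclear phosphatase that switches off MAP kinases (chromosome 2, 127336159 to 127338376, plus strand), had 120, 107 and 93.7 TPM in cKO, against 186, 371 and 529 TPM in WT. The WT mice were spread almost 3-fold, and WT mouse 4 was the nearest to cKO (log2 fold change -1.79 ± 0.34 SE, adjusted p 0.0188). The Dusp2 call was lost without cKO mouse 2, cKO mouse 3, WT mouse 5 or WT mouse 6 (adjusted p up to 0.106). At 8 h Dusp2 lay on the opposite side and was not called (log2 fold change 0.78, adjusted p 0.44 by edgeR). Ier3, an early response gene that modulates survival signals (chromosome 17, 35821684 to 35822923, plus strand), had 63.6, 77.3 and 94.3 TPM in cKO, against 171, 163 and 152 TPM in WT. It was separated more cleanly (log2 fold change -1.10, adjusted p 1.01e-05). Of 27 tested immediate early and feedback genes these 2 were called lower and 0 higher. The median was -0.21, and 7 of the 27 had a log2 fold change above 0, compared with 49.5% of all tested genes. The list median was already -0.20 at 0 h, before activation, and was -0.0049 at 8 h and 0.11 at 24 h. Junb, a subunit of the AP-1 factor, overlapped, with 500, 569 and 513 TPM in cKO, against 561, 570 and 570 TPM in WT (log2 fold change -0.14, adjusted p 0.571).

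In the NF-kappaB pathway, 2 of 23 tested members were called lower and 0 higher, with a median of -0.04. Nfkbid encodes a nuclear inhibitor protein that modulates NF-kappaB (chromosome 7, 30421732 to 30428746, plus strand), and had 691, 708 and 569 TPM in cKO, against 832, 1153 and 1305 TPM in WT. Traf4, an adaptor of the TRAF family (chromosome 11, 78158499 to 78165589, minus strand), had 28.6, 24.7 and 18.4 TPM in cKO, against 30.2, 43.2 and 55.9 TPM in WT. In both genes WT mouse 4 was the lowest WT mouse, and for Traf4 it lay just above cKO mouse 1. The log2 fold changes were -0.78 (adjusted p 0.0347) and -0.88 (adjusted p 0.033), and both calls were lost without cKO mouse 2, cKO mouse 3, WT mouse 5 or WT mouse 6 (adjusted p up to 0.175 for Nfkbid and 0.165 for Traf4). Nfkbid also lost its call without cKO mouse 1. Nfkbia, the classical cytoplasmic inhibitor, was not called (log2 fold change -0.08, adjusted p 0.756).

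Matk, a kinase that restrains Src-family kinases (chromosome 10, 81252935 to 81263365, plus strand), had 5.74, 7.54 and 11.2 TPM in cKO, against 16, 14.5 and 17.2 TPM in WT. It was without overlap (log2 fold change -1.03, adjusted p 0.00789) and was the only called gene of 30 tested genes of the T cell receptor complex and proximal signalling, whose median was -0.03. Lck, the kinase that starts the receptor signal, was not called (log2 fold change 0.00, adjusted p 0.998). Ppic, a cyclophilin that helps proteins fold (chromosome 18, 53406332 to 53418115, minus strand), had 15.1, 9.28 and 10.3 TPM in cKO, against 26.5, 30.2 and 17.8 TPM in WT. The gap between the genotypes was narrow, between cKO mouse 1 and WT mouse 6 (log2 fold change -1.14, adjusted p 0.00454). Polg, the catalytic subunit of the mitochondrial DNA polymerase (chromosome 7, 79446231 to 79466362, minus strand), had 9, 8.38 and 9.56 TPM in cKO, against 11.6, 16.6 and 17.2 TPM in WT. Slc19a2, a thiamine transporter (chromosome 1, 164249046 to 164265385, plus strand), had 8.66, 5.35 and 7.60 TPM in cKO, against 11.0, 13.5 and 13.5 TPM in WT. Neither overlapped, and the log2 fold changes were -0.79 (adjusted p 0.00123) and -0.85 (adjusted p 0.049). Calls were lost for Matk without cKO mouse 1, cKO mouse 2 or WT mouse 6 (adjusted p up to 0.0629), and for Ppic without cKO mouse 2 or WT mouse 5 (up to 0.0769). The Slc19a2 call was lost without cKO mouse 2, cKO mouse 3, WT mouse 5 or WT mouse 6 (adjusted p up to 0.232).

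Plscr1, a phospholipid scramblase (chromosome 9, 92249750 to 92272278, plus strand), had 35.8, 33.1 and 31.8 TPM in cKO, against 47.5, 61.2 and 52.6 TPM in WT. Tubb2a, a beta-tubulin (chromosome 13, 34074274 to 34078007, minus strand), had 81.7, 77.2 and 115 TPM in cKO, against 160, 133 and 135 TPM in WT. Both were separated, though cKO mouse 3 came near to WT for Tubb2a, and the log2 fold changes were -0.72 (adjusted p 0.000718) and -0.70 (adjusted p 0.00206). Tubb2a was not called without cKO mouse 2 (adjusted p 0.0526). Further called decreases were spread over other functions. They included the calcium-dependent kinase genes Camk4 (log2 fold change -0.66, adjusted p 0.0313) and Camk2d (-0.60, adjusted p 0.046), the DNA repair enzyme gene Ung (-0.58, adjusted p 0.00829) and Odc1, the first enzyme of polyamine synthesis (-0.48, adjusted p 0.049). At low levels, Sdc4, a cell-surface proteoglycan, had 2.03, 1.33 and 1.12 TPM in cKO, against 6.05, 6.80 and 5.78 TPM in WT (log2 fold change -2.08, adjusted p 0.000374). Every cKO mouse was well below every WT mouse for Sdc4. Hgsnat, a lysosomal enzyme, was the called gene whose genotypes overlapped, with 6.28, 4.68 and 5.10 TPM in cKO, against 5.88, 12.4 and 11.5 TPM in WT (log2 fold change -0.92, adjusted p 0.0313).

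Several processes held few or no called genes. In the naive and stem-like list Als2cl was higher (log2 fold change 0.62, adjusted p 0.0241) and Myb, a transcription factor of stem-like cells, was lower (-1.42, adjusted p 0.0313) among 24 tested, with a median of 0.10. In the list of Wnt targets and TCF partners, Rnf43, a ubiquitin ligase that removes Wnt receptors, was the called gene of 21 (log2 fold change 1.97, adjusted p 0.0359), at 1.13, 1.11 and 1.12 TPM in cKO, against 0.43, 0.19 and 0.19 TPM in WT. Of 24 effector and exhaustion transcription factors, Bhlhe40 was called higher (0.51, adjusted p 0.0135) and 0 were lower, with a median of 0.05. Among 26 ribosome biogenesis genes the nucleolar methyltransferase gene Fbl was called lower (-0.52, adjusted p 0.033) and 0 were higher, with a median of -0.08. By edgeR no gene was called among 25 cell cycle entry genes, 21 apoptosis regulators or 18 glycolysis and glucose uptake genes, whose medians were 0.01, 0.04 and -0.10. At an unadjusted p under 0.05 these lists held 3, 3 and 6 genes, and 1354 of all tested genes passed that limit. DESeq2 called 0, 1 and 0 of them, the survival gene Bcl2 being higher, and limma called none.

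The listed interferon-stimulated genes leaned one way without a call by edgeR. Of 25 tested, 24 had a log2 fold change above 0, the median was 0.30, and 12 were higher in cKO without overlap and 0 were lower. The list was not complete. Plscr1, an interferon-inducible gene outside it, was called lower without overlap (log2 fold change -0.72, adjusted p 0.000718 by edgeR). Among all tested genes 49.5% had a log2 fold change above 0, and 10.5% were higher and 5.82% lower without overlap. The summed level of the listed genes was 1121, 1052 and 1056 TPM in cKO, against 826, 931 and 852 TPM in WT. Every cKO library was thus above every WT library. None of the 25 had an adjusted p under 0.05 in edgeR's test, in which 6 had an unadjusted p under 0.05. DESeq2 called 1, Usp18, a protease that removes ISG15 from proteins, and limma called 0.

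**Figure D3:**
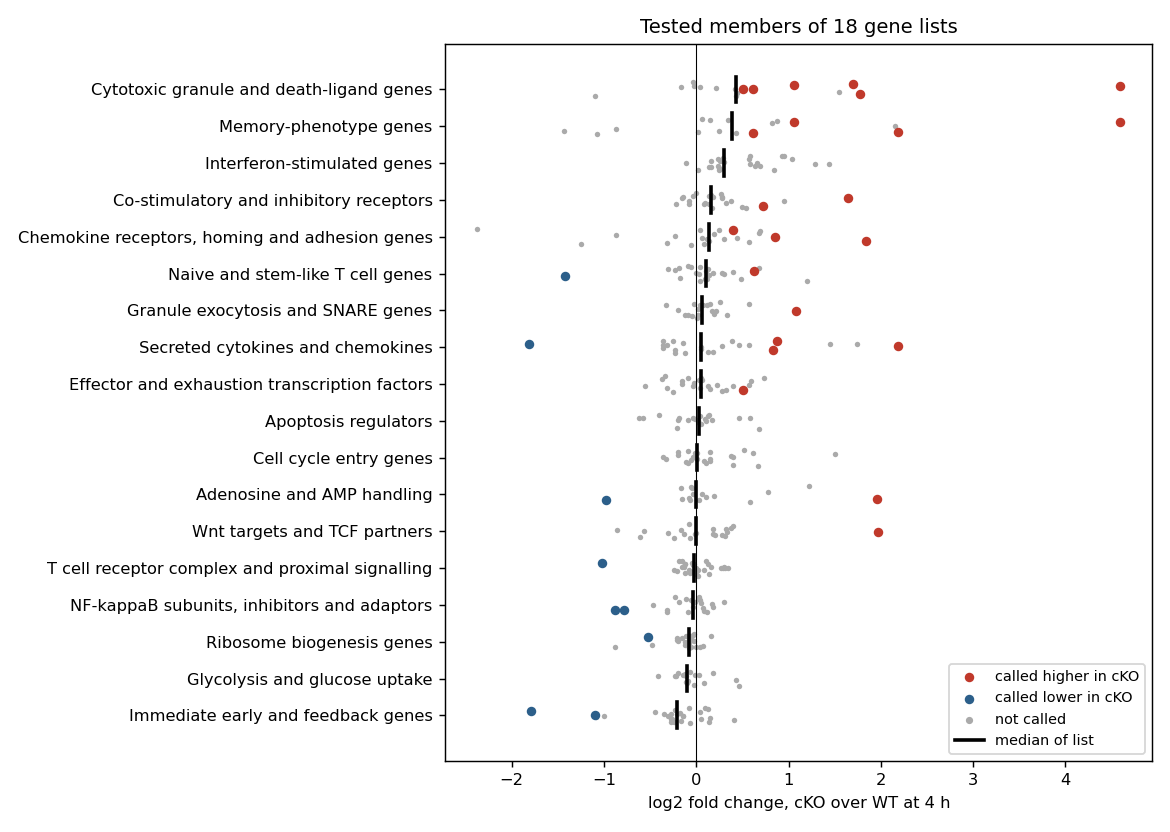
Log2 fold change of cKO over WT at 4 h (horizontal axis) for each tested member of 18 gene lists, ordered by their median (black bar), with members called higher in red, called lower in blue and uncalled in grey. The cytotoxic list is at the top with a median of 0.44, and the immediate early and feedback list at the bottom with -0.21.

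Most genes that were higher in cKO at 4 h were on the same side at the other times, in separate libraries of the same mice. Of the 50 higher genes, 44, 48 and 43 were on the same side at 0, 8 and 24 h, and their median log2 fold changes there were 0.52, 0.45 and 0.42. Of the 44 lower genes, 35, 28 and 24 were on the same side at 0, 8 and 24 h, with medians of -0.19, -0.14 and -0.04. Among all genes tested, between 49.97 and 59.5% of those on a given side at 4 h were on the same side at another time. Called in the same direction were 15, 13 and 9 of the 50 at 0, 8 and 24 h (0.445, 0.183 and 0.105% of all genes were called there), and 4, 2 and 0 of the 44. These counts do not show by themselves that a difference changed with time. Fasl had log2 fold changes of 5.44, 4.60, 5.04 and 2.96 and Cxcr6 of 1.91, 1.84, 1.01 and 1.24 at 0, 4, 8 and 24 h, all called. Gzmc had -0.23, 1.70, 1.83 and 1.78, called at 4, 8 and 24 h. At 0 h Gzmc was close to undetected, averaging 0.163 TPM in cKO and 0.153 TPM in WT, and its SE there was 1.61. Ier3 had 0.14, -1.10, -0.88 and -0.08, called at 4 and 8 h.

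**Figure D4:**
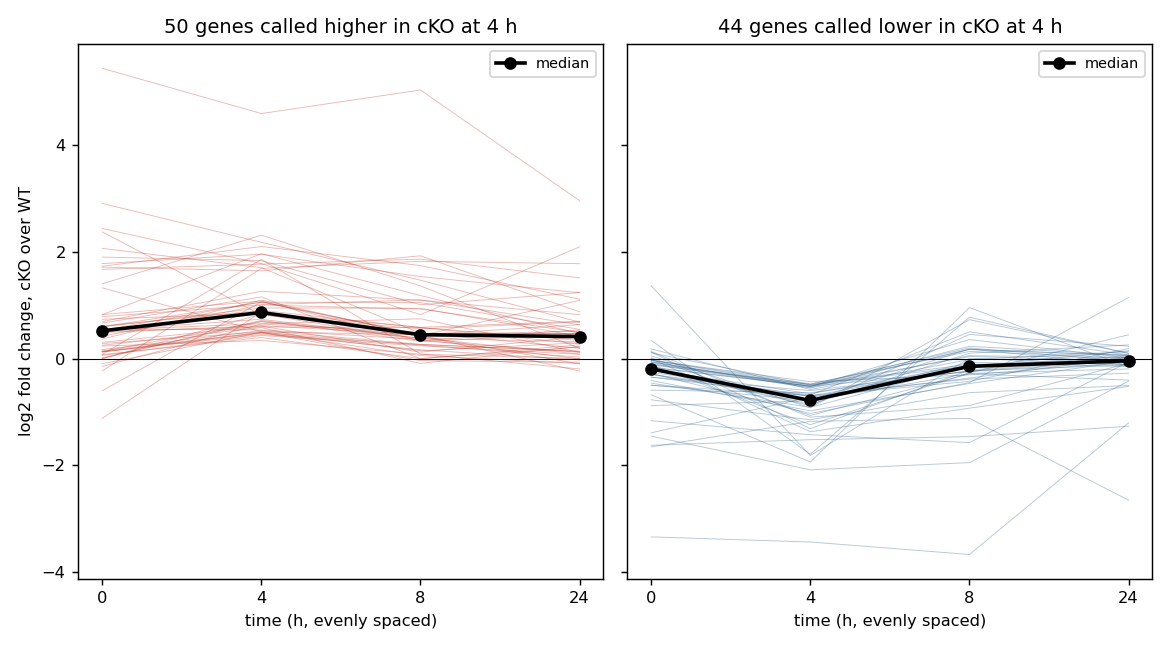
Log2 fold change of cKO over WT at 0, 4, 8 and 24 h for the 50 genes called higher (left) and the 44 called lower (right) at 4 h, with 1 thin line per gene and the median in black. Genes were chosen at 4 h, so the size at 4 h is a selected value, and the medians at the other times are 0.52, 0.45 and 0.42 on the left and -0.19, -0.14 and -0.04 on the right.

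The test of the difference itself asks whether the genotype effect at 4 h departs from that at another time. Against 0 h it called 1 gene (0.00872%), Dennd5a, a DENN-domain regulator of membrane traffic. Dennd5a averaged 55.2 ± 4.04 TPM in cKO, against 30.3 ± 2.99 TPM in WT at 4 h, and 8.67 ± 0.947 TPM in cKO, against 1.65 ± 0.953 TPM in WT at 0 h (SD, n = 3 each). It was higher in cKO at both times, and its log2 fold change was smaller at 4 h, 0.82, than at 0 h, 2.38, a difference of -1.56 (adjusted p 0.00224, edgeR). Against 8 h it called 7 genes (0.0610%), all with a lower value of cKO over WT at 4 h. The most abundant of them was Fbl, at 90.7 ± 4.76 TPM in cKO, against 127 ± 22.3 TPM in WT at 4 h, and 210 ± 22.4 TPM in cKO, against 160 ± 48.4 TPM in WT at 8 h (SD, n = 3 each). Its log2 fold change was -0.52 at 4 h and 0.36 at 8 h, a difference of -0.88 (adjusted p 0.0268, edgeR). Against 24 h it called 3 genes (0.0262%), Adk, Matk and Tcf7. Tcf7 averaged 37.2 ± 1.34 TPM in cKO, against 69.4 ± 7.23 TPM in WT at 24 h (SD, n = 3 each), so its log2 fold change was -0.90 there and 0.40 at 4 h, a difference of 1.30 (adjusted p 0.00033, edgeR). The difference did not pass for Gzmc against 0 h (1.92 ± 1.96 SE, adjusted p 0.898) or for Dusp2 against 8 h (-2.57 ± 0.47 SE, adjusted p 0.0677). Genes at an unadjusted p under 0.05 numbered 816, 976 and 770 against 0, 8 and 24 h. With the mouse as a block, since each mouse gave a library at every time, 2, 6 and 6 genes were called. Against 8 h the count was 40, 1 and 0 without cKO mouse 1, 2 or 3, and 130, 0 and 0 without WT mouse 4, 5 or 6, and the Fbl call was lost in all of these but those without cKO mouse 1 or WT mouse 4. Against 0 h it was 2 without cKO mouse 1, and against 24 h it was 8 without cKO mouse 3 and 1 without cKO mouse 2 or WT mouse 4. Dennd5a and Tcf7 kept their calls in all 6 of these fits. Adk and Matk were not called against 24 h without cKO mouse 1, cKO mouse 2 or WT mouse 4 (adjusted p up to 0.0816 for Adk and 0.11 for Matk), nor was Matk without WT mouse 6.

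How many genes were called rested on single libraries. Leaving out cKO mouse 1, 2 or 3 at 4 h gave 112, 25 and 54 calls, and leaving out WT mouse 4, 5 or 6 gave 141, 40 and 37. Among the decreases WT mouse 4 was nearest to the cKO mice for 26 of the 44 genes, and the count of lower genes was 97 without it and 5 without cKO mouse 2. The call held in all 6 such fits for 17 of the 50 higher genes and 5 of the 44 lower genes. The higher ones were Fasl, Cxcr6, Gzmb, Gzmc, Ctsw, Nt5e, Car2, Itgae, Amica1, Plac8, Stx1a, Dennd5a, Cd55, Furin, Coro2a, Nrp1 and 5430427O19Rik, and the lower ones were Adk, Ier3, Polg, Plscr1 and Sdc4. Every other call named here was lost without at least 1 library, those of the gene lists included. In these edgeR fits the adjusted p reached 0.453 for Camk2d, 0.3 for Fbl, 0.292 for Myb, 0.266 for Odc1 and 0.227 for Rnf43. It reached 0.211 for Hgsnat, 0.175 for Pdcd1lg2, 0.165 for Bhlhe40, 0.153 for Camk4, 0.126 for Cd86, 0.105 for Als2cl and 0.0727 for Ung. A limma voom fit, another tool, took the mouse as a random block over all 24 libraries, with a within-mouse correlation of -7.03e-05. It did not call 28 of the 94 genes. They included Ccl5 (adjusted p 0.101), Camk2d (0.128) and Hgsnat (0.0954), and, with adjusted p between 0.0502 and 0.0586 in that block fit, Prf1, Cd86, Pdcd1lg2, Rnf43, Tnfsf11, Traf4 and Fbl.

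**Figure D5:**
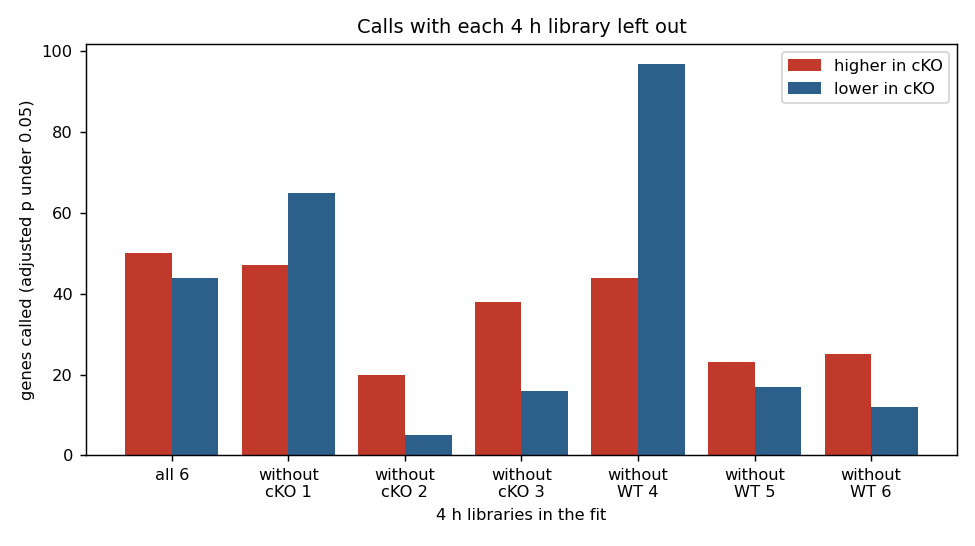
Number of genes called higher (red) and lower (blue) in cKO at 4 h with all 6 libraries and with each 4 h library left out in turn. The higher count ranges from 20 to 47 and the lower count from 5 to 97, against 50 and 44 with all 6.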

How the data were processed

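The submitters' processing notes name STAR, RSEM, DESeq2 and the build mm10, without versions or settings. The deposited files, 1 for each library, give, per the file headers, for 23420 genes the expected count, RSEM's estimate of a gene's reads, and TPM as the authors computed it. Expected counts were rounded and tested with edgeR 4.0.16 in R 4.3.3 by a robust quasi-likelihood model over all 24 libraries, with TMM scaling, a mean for each of the 8 groups of genotype and time, and edgeR's filter on low counts, which left 11470 genes. Tests were two-sided, adjusted by Benjamini-Hochberg over all genes tested, and called under 0.05. Levels are the deposited TPM of each mouse. The approximate SE is the absolute log2 fold change over the square root of F.

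Replicates are separate mice per the labels. No mouse occurs in both genotypes, so no pairing exists within 4 h. Each mouse occurs at every time, so the mouse was a block in the alternatives, and deviations from group means at 4 h correlated with those of the same mouse at other times by -0.0846 to 0.163. Genes described with every mouse were the 12 largest increases and 12 largest decreases among called genes with at least 10 TPM in the higher group, no overlap and a gene name. Other called genes were named in groups, with up to 3 abundant uncalled members of a list. The examples followed over time and in the interactions, and Sdc4 and Hgsnat, were chosen after their values were seen. The members and the gene lists were chosen with earlier results of these data known. Positions are GENCODE M21 on GRCm38, matched by symbol for 21777 of 23420 genes, and for Amica1 RefSeq. Smart-seq2 reads are not independent molecules. Alternatives used DESeq2 1.42.0, limma 3.58.1, other filters and scalings, and omission of each library.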

Additional observations from a re-analysis of the deposited data

Results flagged for a closer look

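The genotype difference at 4 h departed from that at another time, by edgeR's test of the difference itself with Benjamini-Hochberg adjustment, for 11 genes. Against 0 h it was Dennd5a, with a difference of log2 fold changes of -1.56. Against 8 h, Irak1bp1 differed by -2.89, Fance by -1.86, Hgsnat by -1.65, Deaf1 by -1.18, Tgif2 by -0.997, Fbl by -0.882 and Vars by -0.776. Of these 7 differences, 0 were called without cKO mouse 3, WT mouse 5 or WT mouse 6, and 1 without cKO mouse 2. At 8 h these 7 genes had a cKO mean above the WT mean, and at 4 h a cKO mean below it. Irak1bp1 had 1.02, 0.37 and 0.46 TPM in cKO, against 2.02, 2.26 and 2.83 TPM in WT at 4 h, and Deaf1 had 13.7, 11.4 and 11.8 TPM in cKO, against 17.2, 19.2 and 20.1 TPM in WT. Both genes were without overlap at 4 h. For Fance, Hgsnat and Vars the WT mouse 4 library lay among the cKO libraries. Against 24 h, Matk differed by -2.17, Adk by -0.934 and Tcf7 by 1.3. The Matk and Adk differences were not called without cKO mouse 1, cKO mouse 2 or WT mouse 4, and that of Matk not without WT mouse 6. Adk averaged 81.8 TPM in cKO, against 155 TPM in WT at 4 h, and 96.7 TPM in cKO, against 99.4 TPM in WT at 24 h, so the genotypes were apart at 4 h and close at 24 h.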

How the results depend on the processing

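Across 16 alternatives to the fit at 4 h, none of 35 genes recomputed, those described one at a time among them, changed direction, 452 of their values stayed on the same side of the threshold, 99 lost the call and 9 gained it. Of the interaction values, 63 stayed and 36 lost the call. Without a filter on low counts 249 genes were called, 91 higher and 158 lower, and DESeq2 called 196, 95 higher and 101 lower. The lower count was 69 without robust fitting and 29 with the 4 h libraries alone. Leaving out 1 library at a time gave 25 to 141 calls, 20 to 47 higher and 5 to 97 lower. For the difference of 4 h from 0 h the count was 45 without the filter, 4 with DESeq2 and 1 to 2 without a library. From 8 h it was 163, 95 and 0 to 130, and from 24 h 58, 6 and 1 to 8. A pairing by mouse (replicate block) in limma voom gave 75 calls at 4 h, 45 higher and 30 lower. As a fixed block in edgeR it gave 2, 6 and 6 interaction calls against 0, 8 and 24 h. The within-mouse correlation in the voom fit was -7.03e-05, and that fit also used another tool than the reported one. Which of these changes lost the calls was not tested. The share of calls that were higher was 53.2% in the reported fit, 68.8% with the 4 h libraries alone and 36.5% without the filter, while no scaling moved the median of all genes by over 0.1. The cause of these shifts was not tested. Called genes that lost their call without at least 1 library included Ccl5, Prf1, Kit, Ifng, Ccl3, Tnfsf11, Dusp2, Nfkbid, Traf4, Slc19a2, Matk and Ppic, and Gzmc lost it on log2(TPM + 0.1), where low values weigh more, but not on log2(TPM + 1). The weighted length of Tcf7 was not tested because the file gives 1 transcript.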

Other observations

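At 4 h, 10 of the 50 genes higher in cKO had a mean over the 6 mice at least 2-fold above that at 0 h and 10 at least 2-fold below it. Of the 44 genes lower in cKO, 17 were at least 2-fold above their 0 h level and 7 at least 2-fold below it. Among all genes tested these shares were 11.7% and 15.7%. Cd163l1, a scavenger receptor family gene of gamma-delta T cells, had 2.65, 0.80 and 1.02 TPM in cKO, against 4.65, 4.70 and 8.60 TPM in WT, without overlap, and was not called (log2 fold change -2.03, adjusted p 0.118 by edgeR). It was 1 of 2 tested markers of these cells, and the other was also lower without overlap and uncalled (log2 fold change -3.54). All markers of the list summed to 2.75, 0.87 and 1.02 TPM in cKO, against 5.11, 5.01 and 9.16 TPM in WT, mostly Cd163l1. The median of the 2 was -1.86, -1.60 and -1.47 at 0, 8 and 24 h. The part of these cells in the result was not tested. Hba-a1, a haemoglobin gene, had 0, 21.4 and 0.59 TPM in cKO mice 1 to 3 and was listed at 0 in each WT mouse. These genes were chosen after their values were seen.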
